A study of Mus musculus with 6 samples.

Results

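The genes of the integrated stress response that act through the transcription factor ATF4 were followed in RNA-seq libraries of immature NK cells with and without a deletion of Myc. Their 10 members, among the 25690 gene symbols matched, were Asns, Atf4, Atf3, Atf5, Ddit3, Ddit4, Trib3, Chac1, Sesn2 and Ppp1r15a, taken as a named list to ask whether a difference in Asns was accompanied by other ATF4 targets. Of these, 9 had enough counts to be tested and Chac1 had not. The members were selected on prior sight of the genotype difference of Asns in these estimated counts, so the genotype differences in the members' gene totals are given as a description and without p-values.

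The libraries came from CD27SP NK cells, sorted from mouse BM as NK1.1+CD27+CD11b- cells with a gate against CD3, on a C57BL/6 background. The control genotype was Ncr1cre Myc wt/wt, with 3 libraries numbered 1, 2 and 4. The other genotype was Ncr1cre Myc fl/fl, again with 3 libraries numbered 1, 2 and 4. Both genotypes carry the Cre recombinase in the Ncr1 locus, the gene of NKp46, so in the fl/fl mice only cells that have begun to express NKp46 lose Myc, and the effect of Cre itself is shared by the controls. The study used mice of several weeks of age, matched for sex and age. The age behind each library and whether mice were pooled are not given in the sources used here, and p-values measure the spread between these libraries.

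In the integrated stress response, kinases that sense amino acid shortage, unfolded protein in the ER, double-stranded RNA or heme deficiency phosphorylate the translation initiation factor eIF2. General translation then falls, while a few mRNAs with upstream open reading frames, among them those of ATF4, ATF5, CHOP and GADD34, are translated better. ATF4 pairs with C/EBP proteins and switches on genes of amino acid synthesis and import, tRNA charging, redox defence and, when stress lasts, cell death. The same genes are read in lymphocytes as signs of nutrient or protein folding stress.

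The estimated counts summed to between 54550907 and 64962491 in 5 libraries and to 8101219 in wt/wt library 1, where 11362 genes reached 10 counts, against 15286 to 15705 in the others. Myc was measured at 182.7 ± 18.1 CPM (SD, n = 3) in wt/wt and 67.5 ± 7.94 CPM in fl/fl libraries, a log2 difference of -1.44 ± 0.15 (SE; edgeR adjusted p = 0.00189). The gene total does not separate the deleted exons from the rest. CPM are counts scaled to a common library total and normalised by TMM factors. A gene passed the limits at an adjusted p below 0.01 in edgeR's quasi-likelihood test, with a log2 fold change of at least 0.5 in size. Over all 15474 genes tested, 198 passed as higher in Ncr1cre Myc fl/fl cells (1.28%) and 135 as lower (0.872%), 2.15% in either direction, whereas a fit with offsets from the effective lengths left 24 higher and 8 lower. In bulk libraries, fewer cells of a type and less RNA per cell cannot be told apart.

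ATF4 and its C/EBP partners bind the C/EBP-ATF response element, searched for here as TGATGNAA or its reverse TTNCATCA. In RefSeq promoter windows (GRCm38.p6) from 250 bases before to 50 after a transcription start, 4 of the 11 windows of the 10 members held these letters, those of Asns, Atf3, Trib3 and Chac1, compared with 3.97% of all 32851 windows. The cyclic AMP response element TGACGTCA was found in the Ppp1r15a window alone among the members and in 1.79% of all windows. The E box CACGTG, the letters that MYC and MAX recognise, was in 0 of the 11 windows and in 7.15% of all. The stretches around the matches are shown because the motif was held by members as different in level as Asns and Atf3, which were higher in fl/fl cells, and Chac1, which was hardly detected, with the motif in capitals, each read 5′ to 3′ along the gene. The Asns stretch is chr6:7693214-7693243 on the minus strand, inside the first exon of Asns-201 in GENCODE. Its motif ends 16 bases before the RefSeq start. The Atf3 stretch is chr1:191183396-191183495 on the minus strand, and its motif ends 103 bases before the start. The Trib3 stretch is chr2:152344028-152344057 on the minus strand, from 4 to 33 bases after the RefSeq start. In GENCODE its motif lies before the start of Trib3, so the annotations place these motifs differently. The Chac1 stretch is chr2:119350997-119351096 on the plus strand, and the Ppp1r15a stretch is chr7:45526269-45526368 on the minus strand, the last 100 bases before its start.
Asns: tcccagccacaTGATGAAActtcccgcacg
Trib3: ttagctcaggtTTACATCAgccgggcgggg
Atf3: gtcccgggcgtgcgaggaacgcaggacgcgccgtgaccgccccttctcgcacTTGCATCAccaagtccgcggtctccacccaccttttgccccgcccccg
Chac1: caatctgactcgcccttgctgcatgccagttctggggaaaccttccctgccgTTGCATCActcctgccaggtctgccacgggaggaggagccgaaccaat
Ppp1r15a: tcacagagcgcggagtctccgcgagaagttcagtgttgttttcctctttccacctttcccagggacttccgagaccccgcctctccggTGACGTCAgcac
A match in letters is a description of the window, not a binding site. Atf4, Atf5, Ddit3, Ddit4 and Sesn2 held none of the motifs in these windows, which says nothing of other stretches.

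Of the 10 members, Asns, Atf3 and Ppp1r15a were higher past the limits in Ncr1cre Myc fl/fl cells and 0 were lower. The share of all tested genes higher past the limits was 1.28%. With the adjusted p limit loosened to 0.05 and no fold limit, it was again 3 members higher and 0 lower, beside 4.45% and 3.38% of all genes. Nothing is read from the members' count, since this contrast chose them. The libraries of the genotypes did not overlap, with all fl/fl values above all wt/wt values, for 5 members, Asns, Atf3, Ppp1r15a, Atf4 and Trib3. Over all genes tested, 16.2% were higher without overlap. Ddit3, Ddit4, Sesn2 and Atf5 overlapped, and Chac1 was all but undetected. The median log2 fold change over the 9 tested members was 0.34, beside 0.01 over all genes tested.

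**Figure D1:**
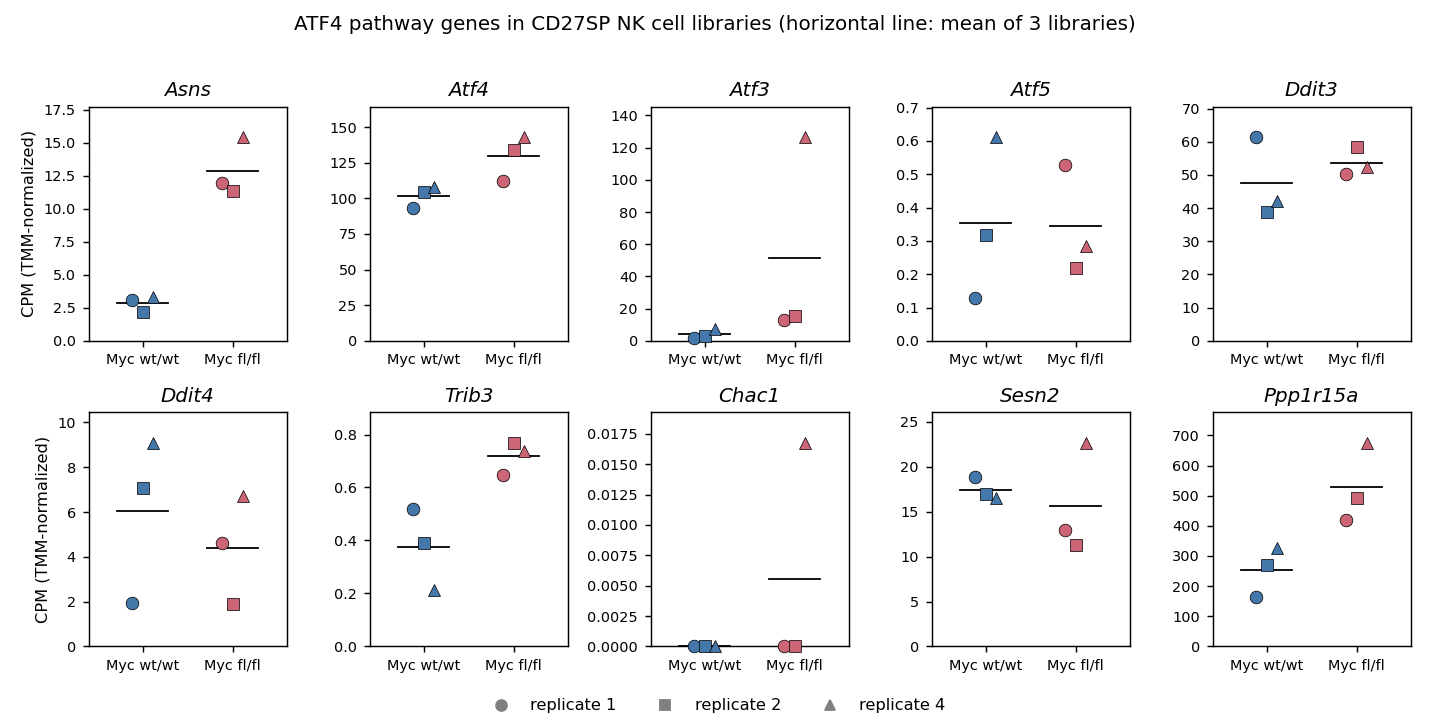
CPM (TMM-normalized) of each of the 10 members in the 6 libraries, Ncr1cre Myc wt/wt on the left and Ncr1cre Myc fl/fl on the right of each panel; the shape of a point gives the replicate number, the line the mean of 3 libraries, and each panel has its own linear axis from 0. The fl/fl libraries of Asns sit between 11.3 and 15.4 CPM, above all wt/wt libraries, while those of Ddit3, Ddit4 and Atf5 overlap in range with the wt/wt libraries, those of Sesn2 fall on both sides of them, and for Atf3 fl/fl library 4 stands apart at 126.4 CPM.

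Asns encodes asparagine synthetase, which makes asparagine from aspartate and glutamine, and lies at chr6:7675169-7693254 on the minus strand (GRCm38). Its CPM were 3.12, 2.22 and 3.28 in wt/wt libraries 1, 2 and 4 and 11.9, 11.3 and 15.4 in fl/fl libraries 1, 2 and 4. The genotypes were thus apart by more than the spread inside either. The log2 fold change was 2.19 ± 0.24 (SE), a 4.56-fold difference, and it lay between 2.11 and 2.29 in all 11 other settings that gave a value. The wt/wt values rest on 24, 125 and 215 counts. Of its annotated transcripts, Asns-201 held 92.5% to 100% of the counts in each library, so the difference was carried by the full-length protein-coding transcript.

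Atf4 encodes the factor itself, whose output is known to be set mainly at translation, and lies at chr15:80255184-80257541 on the plus strand. Its CPM were 93.0, 104.8 and 108.1 in wt/wt and 112.3, 134.1 and 142.8 in fl/fl libraries 1, 2 and 4. Every fl/fl library was above every wt/wt library, but the lowest fl/fl value was close to the highest wt/wt value. The log2 fold change of 0.34 ± 0.13 met neither the fold limit nor the adjusted p limit. The mRNA level of Atf4 is no measure of ATF4 protein, which was not measured in these libraries.

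Atf3 encodes a related factor of the basic leucine zipper class, a target of ATF4 that many other stress and mitogen signals induce as well, at chr1:191170296-191218039 on the minus strand. Its CPM were 1.95, 3.08 and 7.37 in wt/wt and 13.03, 15.4 and 126.4 in fl/fl libraries 1, 2 and 4. The mean in fl/fl libraries was 51.6 ± 64.8 CPM (SD, n = 3), a spread set by library 4, compared with 4.14 ± 2.86 CPM in wt/wt libraries. The log2 fold change was 3.13 ± 0.34, and 2.47 without replicate 4, still past the limits. In each genotype library 4 was the highest and library 1 the lowest. The counts fell on Atf3-201 in all but the shallow wt/wt library 1, where Atf3-202 held 10.1% of 15 counts.

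Ddit3 encodes CHOP, a factor downstream of ATF4 that is linked to cell death after lasting ER stress, at chr10:127290774-127296288 on the plus strand. Its CPM were 61.3, 38.7 and 42.2 in wt/wt and 50.3, 58.4 and 52.4 in fl/fl libraries. The shallow wt/wt library 1 was the highest of all 6. A log2 fold change of 0.21 ± 0.18 lay inside the spread of the libraries. Most of the excess in that library lay on 1 transcript, since Ddit3-203 held 22.2% of its counts there and at most 1.51% elsewhere. The main transcript Ddit3-201, taken alone, was measured at 39.3 ± 4.26 CPM in wt/wt and 47.2 ± 4.42 CPM in fl/fl libraries.

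Atf5, a factor that is translated under stress like Atf4 and acts in the mitochondrial stress response, was near the limit of detection. Its CPM were 0.130, 0.319 and 0.611 in wt/wt and 0.527, 0.219 and 0.285 in fl/fl libraries, from 1 to 40 counts. No genotype difference was detectable at this depth, with a log2 fold change of -0.28 ± 0.68.

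Ppp1r15a encodes GADD34, which brings a phosphatase to eIF2 and so ends the response, at chr7:45522916-45526268 on the minus strand. It had the highest mean TPM of the members in both genotypes, although its range overlapped with that of Ddit3 in wt/wt libraries. Its CPM were 165.6, 270.6 and 327.1 in wt/wt and 420.3, 493.1 and 674.9 in fl/fl libraries 1, 2 and 4. All fl/fl libraries were above all wt/wt libraries, and in each genotype library 1 was the lowest and library 4 the highest. The log2 fold change was 1.08 ± 0.14, a 2.12-fold difference. It was no longer past the limits without replicate 1, which contains the shallow wt/wt library, at a log2 fold change of 0.95.

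Trib3 encodes a pseudokinase that binds ATF4 and dampens its activity, at chr2:152337422-152344032 on the minus strand. Its CPM were 0.520, 0.390 and 0.214 in wt/wt and 0.647, 0.768 and 0.737 in fl/fl libraries 1, 2 and 4. The genotypes did not overlap, but these are 4, 22 and 14 counts against 38, 42 and 44. The log2 fold change of 1.10 ± 0.56 had the largest error of the members that did not overlap and was not past the limits. It was 0.69 without replicate 4 and 1.36 without replicate 1. A difference of the size seen for Ppp1r15a thus did not pass at these counts.

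Sesn2 and Ddit4 both restrain mTORC1, Sesn2 as a leucine sensor and Ddit4, also called REDD1, through the TSC complex. Sesn2 CPM were 18.8, 17.0 and 16.6 in wt/wt and 12.97, 11.3 and 22.6 in fl/fl libraries 1, 2 and 4. Fl/fl libraries 1 and 2 were below and fl/fl library 4 above all wt/wt libraries, and the difference between genotypes was -0.22 ± 0.24 on the log2 scale. Ddit4 CPM were 1.95, 7.09 and 9.08 in wt/wt and 4.63, 1.88 and 6.70 in fl/fl libraries 1, 2 and 4. Its values spread as widely within each genotype as between them, with a log2 fold change of -0.49 ± 0.49. The Ddit4 difference changed sign, to 0.30, when replicate 2 was left out, and was -1.15 without replicate 1.

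Chac1, a glutathione-degrading enzyme and one of the more specific ATF4 targets, had 0 counts in 5 libraries and 1 count in fl/fl library 4. A count of 0 allows up to 3 counts, which is 0.390 CPM in wt/wt library 1, 0.0532 and 0.0458 CPM in wt/wt libraries 2 and 4, and 0.0510 and 0.0549 CPM in fl/fl libraries 1 and 2. These limits cover counting error only. Both genotypes were at or under them and no fold change is given, although the Chac1 window holds the same motif letters as that of Atf3.

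Compared per length, on the TPM scale, Ppp1r15a, Ddit3 and Atf4 had the highest means in either genotype. In wt/wt libraries Ppp1r15a was at 173.8 ± 56.3 TPM, Ddit3 at 95.6 ± 25.9 and Atf4 at 92.0 ± 12.2, and the ranges of neighbours in this order overlapped. Atf4 was then clear of Sesn2 at 7.58 ± 0.20 TPM, followed by Ddit4 at 5.64 ± 3.57, Atf3 at 3.36 ± 1.99 and Asns at 2.16 ± 0.56, each overlapping with the next. Atf5 and Trib3 were both at most 0.558 TPM in every wt/wt library. In fl/fl libraries Ppp1r15a stood at 374.5 ± 91.8 TPM, clear of Atf4 at 125.6 ± 14.0 and Ddit3 at 111.9 ± 7.09, which overlapped. Atf3 followed at 42.0 ± 52.7, with 102.9 TPM in library 4 against a lowest Ddit3 value of 107.0 TPM, and Asns at 10.1 ± 1.48 TPM, ahead of Sesn2 at 7.42 ± 2.87, and neighbours among these again overlapped. Thus Asns was below Sesn2 in wt/wt libraries and overlapped with it in fl/fl libraries, and it was below Atf4, Ddit3 and Ppp1r15a in both genotypes.

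Within Ppp1r15a, the genotype difference was carried by the spliced transcript. Ppp1r15a-201, with 3 exons, was measured at 114.1, 223.2 and 273.7 CPM in wt/wt and 366.1, 441.1 and 614.7 CPM in fl/fl libraries 1, 2 and 4, and its mean was 2.33 times as high in fl/fl libraries. Ppp1r15a-202 keeps the first intron, chr7:45525392-45525994, which lies before the start codon, and was measured at 48.5, 45.5 and 52.5 CPM in wt/wt and 53.4, 52.0 and 59.5 CPM in fl/fl libraries, a ratio of 1.13. The share of Ppp1r15a-202 in the gene's counts was 29.3%, 16.8% and 16.0% in wt/wt and 12.7%, 10.5% and 8.81% in fl/fl libraries. The groups did not overlap. An exact permutation test gave a two-sided p = 0.10, the smallest that 3 libraries against 3 allow, and an adjusted p = 0.70 over the 14 transcript shares compared among the members. The split between transcripts is an estimate of the authors' quantification from single-end reads.

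**Figure D2:**
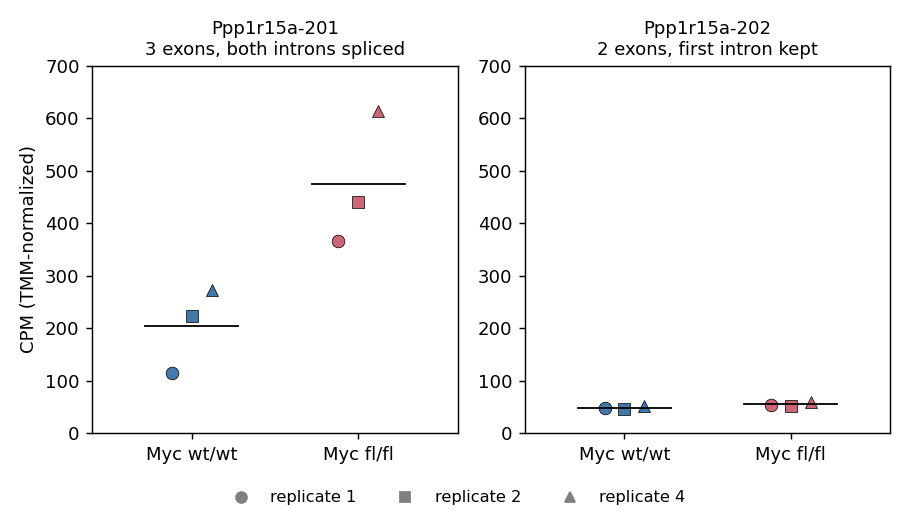
CPM (TMM-normalized) of the spliced transcript Ppp1r15a-201 (left) and of Ppp1r15a-202, which keeps the first intron (right), in the 6 libraries on the same linear axis; point shape gives the replicate number and the line the mean of 3 libraries. The mean of Ppp1r15a-201 goes from 203.7 to 473.9 CPM between wt/wt and fl/fl libraries, that of Ppp1r15a-202 from 48.8 to 55.0 CPM.

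The libraries also differed within a genotype, which the choice of members did not use. Fl/fl library 4 had the highest value of all 6 libraries for Asns, Atf4, Atf3, Sesn2 and Ppp1r15a, and in wt/wt libraries the same number was highest for Asns, Atf4, Atf3, Ddit4, Atf5 and Ppp1r15a. Taken as deviations from the genotype means, Atf4 and Ppp1r15a had a Pearson r of 0.87 and Atf3 and Ppp1r15a of 0.81 over the 6 libraries. Asns had an r of 0.69 with Atf3 but of 0.25 with Ppp1r15a and 0.24 with Atf4. Ddit3 had an r of -0.69 with Ppp1r15a and -0.87 with Ddit4, but of 0.68 with Trib3 and 0.31 with Asns. The r farthest from 0 was -0.95, between Atf5 and Trib3, both of low counts. These 36 pairs share libraries and depth, and the shallow wt/wt library 1 weighs on them, so they are given as a description.

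Few other genes of the pathway passed the limits, and more of them lay below 0 than above. Of 95 genes in 7 lists of ATF4 targets and stress sensors, 90 were tested, 1 was higher and 3 were lower past the limits, beside 1.28% and 0.872% of all genes. Of the 90, 34 had a log2 fold change above 0 and 56 below 0, with a median of -0.13. The gene that was higher was Cebpb, a C/EBP partner of ATF4, with 34.7, 70.0 and 65.0 CPM in wt/wt and 92.7, 116.5 and 122.8 CPM in fl/fl libraries (log2 fold change 1.01 ± 0.16, edgeR adjusted p = 0.00689). Without replicate 1 none of these 4 genes was past the limits, without replicate 2 Cebpb alone was, and without replicate 4 the others were but not Cebpb.

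The 3 genes that fell are known targets of ATF4 in amino acid supply, the branch of the pathway to which Asns belongs. The study also reports Slc7a5 among its down-regulated genes and describes it as a Myc target. Slc7a5, the large neutral amino acid transporter LAT1, was measured at 54.7, 62.3 and 50.1 CPM in wt/wt and 16.6, 16.3 and 26.0 CPM in fl/fl libraries, a log2 fold change of -1.53 ± 0.20 (edgeR adjusted p = 0.00392). Phgdh, the first enzyme of serine synthesis, fell from 215.5 ± 56.3 to 101.1 ± 7.39 CPM (-1.06 ± 0.18, edgeR adjusted p = 0.00937). Psat1, the next enzyme of that path, fell from 127.1 ± 19.8 to 60.9 ± 8.29 CPM (-1.06 ± 0.17, edgeR adjusted p = 0.00671). Of 12 tested genes of amino acid and one-carbon synthesis, 9 had a log2 fold change below 0, with a median of -0.44. Of 8 transporters tested, 4 were below 0. Slc3a2, the partner chain of LAT1, had the highest mean TPM of them. It was at 196.9 ± 33.8 CPM in wt/wt and 195.1 ± 13.8 CPM in fl/fl libraries.

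Among 12 synthetases, which charge tRNAs, and the tRNA exporter gene Xpot, 0 of 13 passed the limits, 11 had a log2 fold change below 0 and the median was -0.31. Sars had the highest mean TPM over all 6 libraries and a log2 fold change of -0.18 ± 0.13. Gars, named after its values were seen, was higher than Sars in wt/wt libraries, at 116.8 against 110.7 TPM, and had a log2 fold change of -0.62 ± 0.15 (edgeR adjusted p = 0.035). Over all genes tested, 12.4% were higher and 10.2% lower at an unadjusted p below 0.05 in edgeR, and DESeq2 called 4.41% higher and 3.68% lower of the 14574 genes to which it gave an adjusted p. These shares stand beside all such counts of the lists. At an unadjusted p below 0.05, 6 of the 13 genes of tRNA charging and export were lower and 0 were higher, and DESeq2 called 1 lower. None of the 7 mitochondrial chaperone and protease genes passed, but all 7 had a log2 fold change below 0, and 3 were lower at an unadjusted p below 0.05 in edgeR, with 2 called by DESeq2. Hspe1, with the highest mean TPM of them, was at -0.37 ± 0.13.

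The input side of the response was represented by 17 genes of eIF2, its exchange factor eIF2B, its kinases and their regulators, of which 0 passed the limits. At an unadjusted p below 0.05 in edgeR 1 was higher and 4 were lower, and DESeq2 called 2 lower. Eif2s1, the eIF2 subunit that the kinases phosphorylate, had 265.1 ± 30.6 CPM in wt/wt and 176.1 ± 4.49 CPM in fl/fl libraries, a log2 fold change of -0.58 ± 0.14 with an edgeR adjusted p = 0.033. Among 20 genes of ER chaperones and the other arms of the unfolded protein response, 0 passed, 12 were above 0 and the median was 0.09. There 5 were higher and 1 was lower at an unadjusted p below 0.05, and DESeq2 called 2 higher. Hspa5, the main ER chaperone BiP, was at 1270 ± 228.6 CPM in wt/wt and 1364 ± 128.0 CPM in fl/fl libraries. Of the 13 other stress factors tested, Cebpb alone passed. At an unadjusted p below 0.05 in edgeR 4 were higher and 0 were lower, DESeq2 called 4 higher, and 0 passed without the replicate block, with limma-trend or with offsets from effective lengths. Sqstm1, an autophagy receptor with the highest mean TPM of them over all 6 libraries, had a log2 fold change of 0.59 ± 0.14 (edgeR adjusted p = 0.0348). In wt/wt libraries Map1lc3b, a gene of autophagosome formation named after its values were seen, was higher per length, at 402.7 against 308.0 TPM, and had a log2 fold change of -0.05 ± 0.14.

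**Figure D3:**
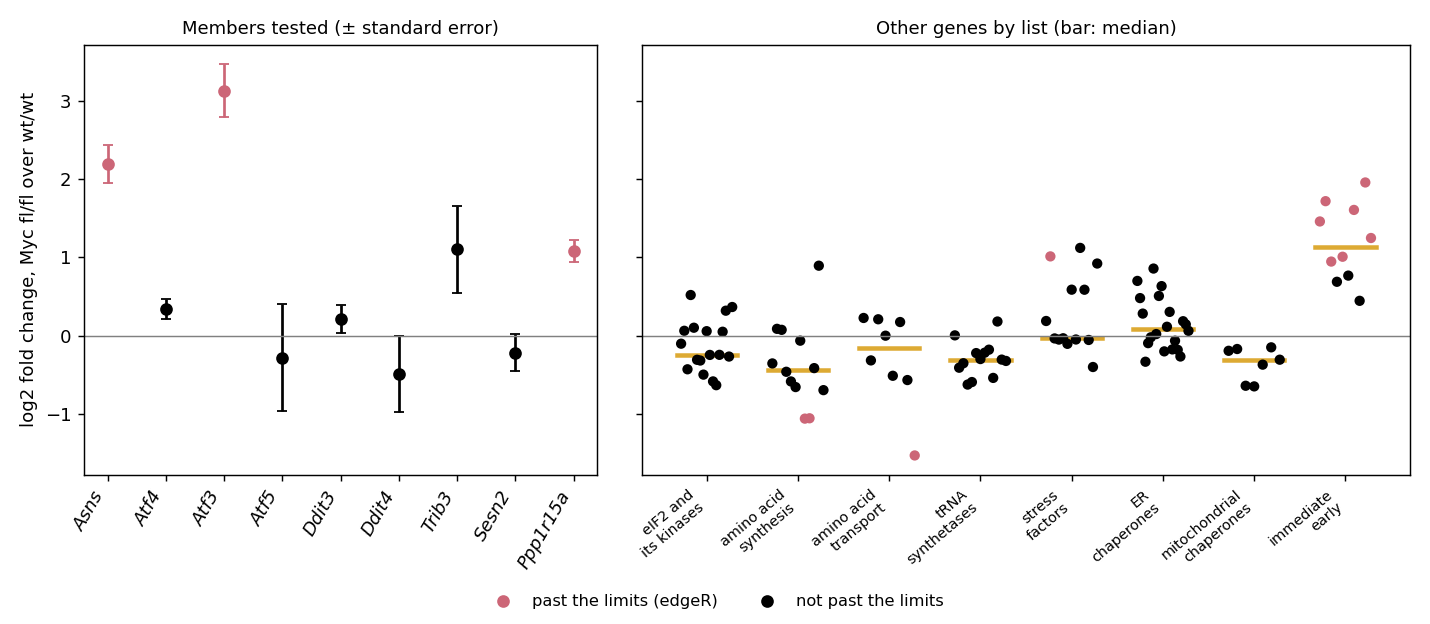
Log2 fold change, Ncr1cre Myc fl/fl over wt/wt, of the 9 tested members with their standard error (left) and of each tested gene of the other lists (right), where the bar is the list's median and red marks genes past the limits in edgeR. Asns, Atf3, Ppp1r15a and, with a wide error, Trib3 lie above 1, while the medians of the synthesis, transport, synthetase, eIF2 and mitochondrial chaperone lists lie between -0.44 and -0.16.

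Close relatives of the members were compared as well. Of 14, Cebpb alone passed the limits, 6 were higher and 1 was lower at an unadjusted p below 0.05 in edgeR, and DESeq2 called 5 higher and 1 lower. Trib2 and Trib1, the other tribbles pseudokinases, had log2 fold changes of 1.19 ± 0.23 and 1.20 ± 0.31, close to that of Trib3, with edgeR adjusted p = 0.0153 and adjusted p = 0.0463, which did not pass the limit. Trib2 was at 7.32 ± 0.49 CPM in wt/wt and 17.1 ± 3.71 CPM in fl/fl libraries, and per length at 5.82 TPM against 0.324 TPM of Trib3 in wt/wt libraries. Sesn1, a relative of Sesn2 that p53 controls, had a log2 fold change of -0.66 ± 0.15 (edgeR adjusted p = 0.0284), and Sesn3 of 0.10 ± 0.15. Atf6, which senses unfolded protein in the ER, was at 0.70 ± 0.14 (edgeR adjusted p = 0.0186) and Jdp2, the nearest relative of Atf3, at 0.59 ± 0.14 (edgeR adjusted p = 0.0299), while Chac2 was at -0.45 ± 0.23 (edgeR adjusted p = 0.287). Ppp1r15b, the constitutive relative of Ppp1r15a, had a log2 fold change of 0.37 ± 0.14 (edgeR adjusted p = 0.156).

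Genes of 3 other responses that can raise members of the list were read beside them. Of 10 immediate early genes, which mitogens and cell handling induce within minutes, 10 had a log2 fold change above 0 and 7 passed the limits as higher, with a median of 1.13. Egr1 had 73.9 ± 26.2 CPM in wt/wt and 240.4 ± 73.4 CPM in fl/fl libraries (1.72 ± 0.14, edgeR adjusted p = 0.000773). The feedback phosphatase gene Dusp1 had a log2 fold change of 1.46 ± 0.14 and the mRNA decay factor gene Zfp36 of 1.25 ± 0.13, with edgeR adjusted p = 0.00117 and 0.00189. Fos, the most abundant of the 10, was at 0.95 ± 0.16 (edgeR adjusted p = 0.00783). Their summed level was 4252, 4796 and 6238 CPM in wt/wt libraries 1, 2 and 4 and 8504, 10089 and 13175 CPM in fl/fl libraries 1, 2 and 4. The library order within each genotype was that of Atf3, Atf4 and Ppp1r15a, and the part of these genes in the members' differences was not tested. Without replicate 1, 4 of the 10 were past the limits, 3 were without the replicate block or with offsets from effective lengths, and 0 were on the TPM scale. Of 9 p53 targets and 5 glucocorticoid targets tested, 0 passed. At an unadjusted p below 0.05 in edgeR 1 p53 target was higher and 2 were lower, and 1 glucocorticoid target was higher. DESeq2 called 1 p53 target in either direction and 1 glucocorticoid target as higher. The gene of each with the highest mean TPM, Bax and Tsc22d3, had log2 fold changes of -0.35 ± 0.20 and 0.26 ± 0.13.

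**Figure D4:**
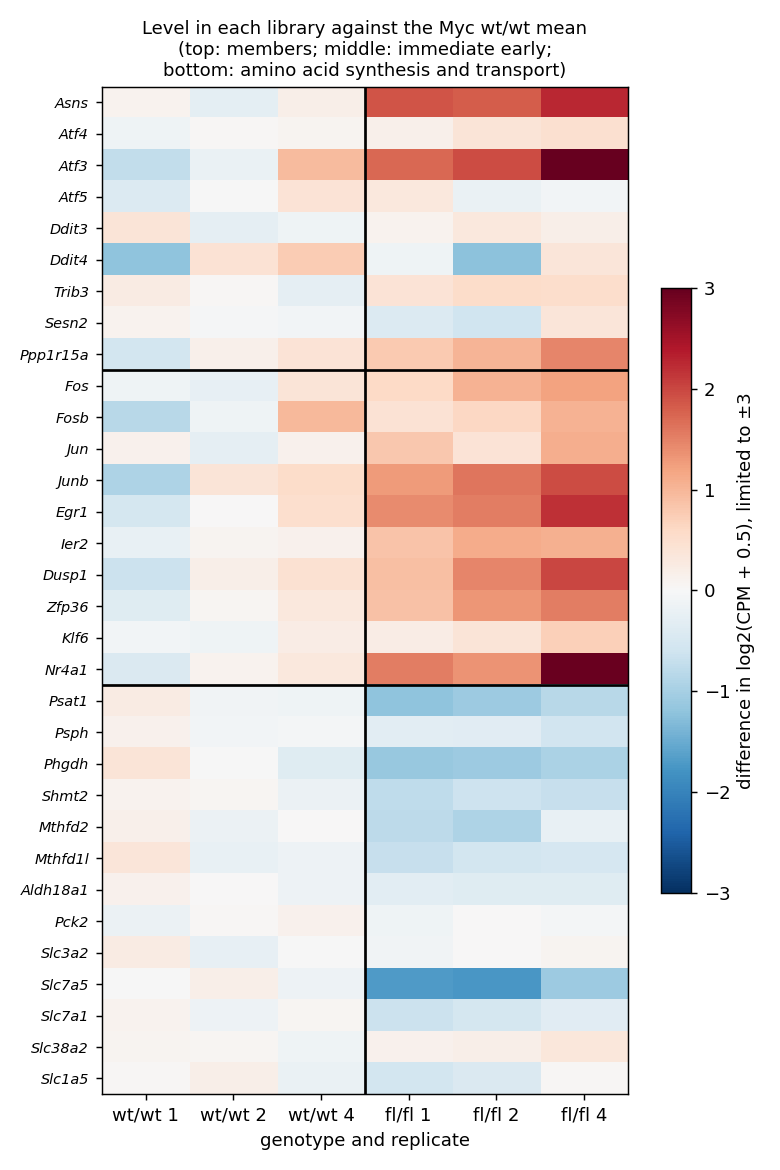
Difference of each library from the mean of the 3 Ncr1cre Myc wt/wt libraries, in log2(CPM + 0.5) with colour limited to 3 in either direction, for the 9 tested members (top), 10 immediate early genes (middle) and 13 genes of amino acid synthesis and transport with more than 5 TPM in wt/wt libraries (bottom). In fl/fl libraries Asns, Atf3 and Ppp1r15a are red, deepest in library 4, and the immediate early genes are red as well, whereas Phgdh, Psat1 and Slc7a5 are blue.

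Markers of other cells moved with the genotype too. The NK cell markers, 0 of 10 past the limits in edgeR with 2 higher and 1 lower at an unadjusted p below 0.05 and 0 called by DESeq2, summed to 14660 to 15252 CPM in wt/wt and 16731 to 17479 CPM in fl/fl libraries. Basophil and mast cell markers, 8 of 10 higher past the limits, summed to 15.3 to 18.8 CPM and 122.9 to 338.0 CPM. Granulocyte-monocyte progenitor markers, 5 of 6 higher, summed to 82.5 to 125.4 CPM and 522.1 to 878.5 CPM. Of the monocyte markers 3 of 5 tested were higher, of the erythroid 3 of 8, of the neutrophil 1 of 7, of the platelet 1 of 5 and of the plasmacytoid dendritic cell markers 1 of 4. Erythroid markers summed to 46.6 to 285.3 CPM in wt/wt and 568.9 to 1188 CPM in fl/fl libraries, and monocyte markers to 15.9 to 27.4 CPM and 63.8 to 69.4 CPM. Neutrophil markers summed to 3.90 to 15.8 and 14.5 to 30.0 CPM, platelet markers to 8.31 to 14.2 and 20.1 to 64.3 CPM, and plasmacytoid dendritic cell markers to 79.9 to 87.1 and 97.5 to 119.2 CPM. Of T cell markers 0 of 7 tested passed in edgeR or DESeq2, with 2 higher and 1 lower at an unadjusted p below 0.05, and they summed to 256.1 to 512.9 CPM in wt/wt and 276.1 to 363.8 CPM in fl/fl libraries. The gate against CD3 is meant to remove T cells. The monocyte marker Fcgr1 had 0 counts in all wt/wt libraries, with the same counting limits as Chac1, and 11, 9 and 9 counts in fl/fl libraries. Without replicate 1, 3 basophil and mast cell, 4 progenitor and 2 erythroid markers were past the limits, and 0 monocyte, neutrophil, platelet or plasmacytoid dendritic cell markers. Without replicate 2, 3 basophil and mast cell markers and 1 monocyte marker were, and 0 of the neutrophil, platelet and plasmacytoid dendritic cell lists. Without replicate 4, 8 erythroid, 3 platelet and 2 neutrophil markers were past the limits, and 0 plasmacytoid dendritic cell markers. With library size only, 4 basophil and mast cell, 5 progenitor, 2 erythroid and 1 monocyte markers were past the limits. With offsets from effective lengths, 3 basophil and mast cell, 4 progenitor and 2 erythroid markers were, and on TPM 2 progenitor markers alone. Over all genes tested, 1.28% were higher past the limits in the fit reported. Among fl/fl libraries, the sums of NK cell, progenitor, neutrophil, monocyte and T cell markers were highest in library 4. Those of basophil and mast cell, erythroid, platelet and plasmacytoid dendritic cell markers were lowest there. The part of cells other than NK cells in the levels of Asns, Atf3 and Ppp1r15a was not tested.

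Under other ways of fitting, Asns was past the limits in all but the fits with offsets from effective lengths and on TPM, where its log2 fold change was 2.17 and 2.19. Without the replicate block Asns alone stayed past the limits, with Atf3 at 3.52 and Ppp1r15a at 1.05 on the log2 scale but outside the adjusted p limit. Since the library kit does not mark strand, reads of overlapping genes on opposite strands cannot be told apart. The gene span of Ppp1r15a shares 717 bases with Tulp2, that of Ddit3 68 bases with Mars and 15 with Gm4189, that of Atf5 571 bases with Nup62 and 272 with Il4i1, and that of Atf3 108 bases with Gm24748, all on the opposite strand. A further GENCODE gene with the symbol Ddit3, at chr10:127290829-127293753 on the plus strand, lies inside the first. Counts were summed by symbol, so the Ddit3 values do not separate them. Sesn2 shares 6089 bases with Gm12981 on the same strand, and Asns, Atf4, Ddit4, Trib3 and Chac1 overlapped with no other annotated gene.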

How the data were processed

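For each of 6 libraries (SMART-Seq v4, poly-A selected, single-end), the authors deposited a transcript table with estimated counts, not normalized, and TPM values, scaled by the authors to transcript length and library. The table columns are those of kallisto, whereas the labels name Salmon and GRCh38; the identifiers are of mouse. Of 100583 transcripts, 100239 were matched to GENCODE M21 (GRCm38). Estimated counts were summed by symbol and rounded, filtered by filterByExpr and compared with edgeR 4.0.16 (R 4.3.3), with TMM factors and the replicate number as a block, as the study calls its comparison paired. P-values were Benjamini-Hochberg adjusted over 15474 genes. TPM were summed by gene for levels between genes. DESeq2 1.42.0, limma 3.58.1 (limma-trend, also on TPM with a pseudocount of 0.1), no block, each replicate left out, library size only, offsets from effective lengths and other filters were alternatives. The scripts were tested on simulated data. Members, lists and tests were chosen with earlier results of these data known. Named are all members, relatives of the members and the 3 genes most like Asns. Of each other list, the genes past the limits (at most 3 by adjusted p) and the gene with the highest mean TPM are named. Genes of the marker lists are given as sums, and those at 0 in a genotype are named in the lists reported. One marker list is not reported here.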

Additional observations from a re-analysis of the deposited data

How the results depend on the processing

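Of the 10 members, 3 were higher past the limits, and 1 was without the replicate block, 0 with offsets from effective lengths and 0 on TPM, where limma-trend was used. Between 2 and 3 passed when a replicate was left out, and 2 with library size only, with Ppp1r15a lost without replicate 1 and with library size only. None was lower past the limits in any setting. Of 97 log2 fold changes of single members under the alternatives, 91 moved by less than the spread between libraries and 6, of Atf5 and Trib3, by more, and none of a member past the limits changed sign.

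Other pathway genes higher past the limits, 1 in the fit reported, were 0 without the replicate block, with limma-trend, library size only, offsets from effective lengths, TPM and the largest adjusted p of the 3 tools, 6 in DESeq2 and at an adjusted p below 0.05, 5 without a filter, 2 with at least 10 counts in every library, and 0 to 1 when a replicate was left out. Those lower, 3 in the fit reported, were 9 in DESeq2 and at an adjusted p below 0.05, 1 with limma-trend and the largest of 3, 0 with library size only, offsets and TPM, 7 without a filter, 4 without the block, and 0 to 3 when a replicate was left out.

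Over all genes, 198 higher and 135 lower became 643 and 537 in DESeq2, 689 and 523 at an adjusted p below 0.05, 524 and 378 without a filter, 49 and 25 with library size only, 24 and 8 with offsets, 3 and 0 on TPM, 203 and 184 without the replicate block, and 144 and 78 with limma-trend or the largest of 3. When a replicate was left out they ranged from 49 to 162 and from 10 to 114. Deviations of equally numbered libraries correlated by -0.00496, -0.0665 and 0.084 over 15474 genes, below the limit of 0.1, so these data do not show that equal numbers pair the mice, and the block rests on the study calling its comparison paired. The shallow wt/wt library 1 limits what can be said of Atf5, Trib3 and Chac1.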

Other observations

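The genes whose log2 CPM followed Asns most closely over the 6 libraries were Uvrag, Trdv4 and E130311K13Rik, with a Pearson r of 0.996, 0.996 and 0.995. Uvrag, which acts in autophagy and endosome traffic, was at 62.0 ± 1.87 CPM in wt/wt and 76.7 ± 1.96 CPM in fl/fl libraries. Trdv4, a T cell receptor delta variable segment, was at 36.1 ± 4.40 and 69.1 ± 4.05 CPM. E130311K13Rik was at 3.89 ± 0.29 and 6.69 ± 0.61 CPM. The members ranked far behind, Atf3 (r = 0.85) and Ppp1r15a (r = 0.85) first, then Atf4 (r = 0.83), Trib3 (r = 0.81) and Ddit3 (r = 0.48). Atf5 (r = 0.02), Ddit4 (r = -0.17) and Sesn2 (r = -0.20) did not follow Asns. These values are over 6 libraries that share 2 genotypes, so genes that differ by genotype are alike by that alone.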
